A study of Neurospora crassa with 11 samples.

Results

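The genes described here are those named as cytosolic ribosomal proteins in the filamentous fungus Neurospora crassa. The names alone do not show that each belongs to the cytosolic ribosome, as described below for genes of low level. They were chosen by the product names in the authors' deposited comparison tables. A gene was taken where its product begins with 40S or 60S in any case, contains the word ribosomal and does not contain the word mitochondrial. The rule took 73 of the 9600 genes in those tables, of which 24 carry a 40S and 49 a 60S name, and all 73 also have a row in the count tables of 9758 genes. It used no measured value. One of the 73, NCU01301, is by its product a subunit assembly and export protein, loc-1, and not a protein of the ribosome itself.

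The cytosolic ribosome is the machine that reads mRNA and builds protein. Its small subunit, 40S, holds the decoding site, and its large subunit, 60S, joins the amino acids and passes the new chain through an exit tunnel. Each subunit is a body of ribosomal RNA bound by many small proteins, most of them needed in equal numbers. In fungi the genes of these proteins are known for high expression in growing cells and for a shared fall when nutrients run out, best described in the yeast Saccharomyces cerevisiae.

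RNA-seq was made from whole mycelium in 11 libraries. All cultures had a first growth phase of 16 h with sucrose. After washing they went into fresh medium with the carbon source named for the group, all in Vogel's salts. The xlr-1 deletion on xylan had 4 libraries. This strain has its own xlr-1 replaced by a hygromycin resistance gene, and XLR-1 is a transcription factor of plant cell wall degradation. A828V without carbon had 3 libraries. In that strain xlr-1 is deleted in the same way, and the allele encoding XLR-1 with the A828V change was put into his-3, where the ccg-1 promoter drives it in place of the gene's own. Wild type FGSC2489, the strain in which both others are recorded, was on xylan with 3 libraries. Xylan is a plant cell wall polymer built on xylose. The same A828V strain on sucrose had 1 library. Wild type without carbon is used here only through the group means of the authors' deposited tables. Whether a group's libraries stem from separate cultures is not in the labels. Counts assigned to genes ran from 10317390 to 18927605 per library. xlr-1 itself stood at 3.28 to 11.8 CPM in the deletion libraries, against 112 to 158 CPM in wild type on xylan, and at 109 to 129 CPM in A828V without carbon, against 199 CPM in A828V on sucrose (CPM, gene counts scaled to a common library size with TMM factors). The mating type gene matA-1 had 0 counts in each deletion library, against 91 to 125 in wild type on xylan. It had 107 to 143 counts in A828V without carbon and 12 in A828V on sucrose, although the A828V genotype is labelled mat a. The libraries are therefore called by their labels, and a difference in mating type or background cannot be told apart from the deletion or the allele. This also holds between the A828V groups, where matA-1 stood at 6.22 to 7.18 CPM without carbon, against 1.06 CPM on sucrose, so that a difference in strain between these libraries cannot be told apart from the carbon source. These are bulk samples, in which fewer cells with a transcript and less of it per cell cannot be told apart.

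The 73 genes together held the least of the library in A828V without carbon, where 2 of the 3 libraries lay below those of every other group, and the most in A828V on sucrose. Their share of all gene counts was 3.16, 4.37, 4.07 and 4.32% in the 4 deletion libraries, against 5.8, 4.61 and 6.56% in wild type on xylan. It was 2.14, 3.17 and 2.52% in A828V without carbon, against 9.69% in the A828V library on sucrose. Each deletion library lay below each wild-type library by this share, though deletion library 2 stood close to wild-type library 2. By sums of TMM-scaled CPM the deletion and wild-type groups overlapped, since deletion library 4 had 51429 CPM over the 73 genes and wild-type library 2 had 47795. The A828V libraries without carbon lay below every wild-type library and the sucrose library on both scales, while A828V library 2 and deletion library 1 were close to each other on both.

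**Figure D1:**
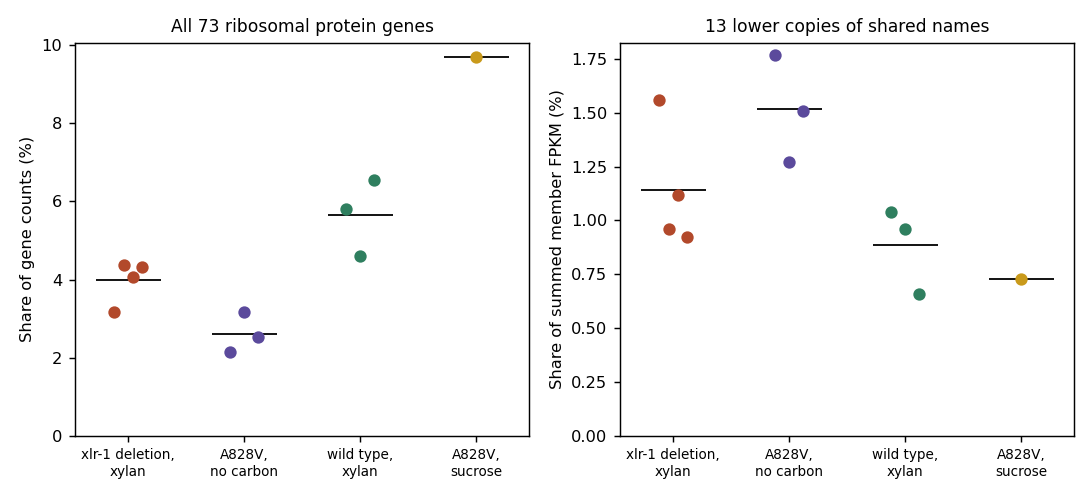
Share of all gene counts held by the 73 ribosomal protein genes (left, %) and share of their summed FPKM held by the 13 lower-expressed genes of shared names (right, %). Each point is a library and each line a group mean. The left share lies at 2.14 to 3.17% in A828V without carbon and at 9.69% in A828V on sucrose. The right share lies at 1.27 to 1.77% and 0.727%. The 13 genes sum to 335, 367 and 356 FPKM in A828V without carbon, against 632 FPKM on sucrose. Their higher share without carbon thus goes with a lower sum.

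Levels between genes were compared on the deposited FPKM, which corrects for length, as the mean of the 4 group means of single libraries. The highest of the 73 was NCU08990 (L39, a small protein in the wall of the exit tunnel; chromosome III, 4147546 to 4148983 in assembly NC12, as for all positions given) at 1805 FPKM. NCU00979 (acidic P2, of the stalk that recruits translation factors) followed at 1724, NCU08389 (L20) at 1531, NCU09476 (S25) at 1454 and NCU00706 (L44) at 1394 FPKM. For L39 the group means were 1608 ± 818 FPKM in the deletion (SD, n = 4), 1097 ± 152 in A828V without carbon (SD, n = 3) and 1987 ± 585 in wild type on xylan (SD, n = 3), with 2527 in the A828V library on sucrose. The lead of L39 over P2 was smaller than these spreads, and on sucrose P2 stood higher, at 3479 FPKM. The order below L39 rests on the sucrose library: over the other 3 groups L44 had 1168, L20 1155, P2 1139 and S25 1109 FPKM, against 1564 for L39. The lowest levels were those of NCU04225 (also named L20) at 0.774, NCU01301 (loc-1) at 6.66, NCU07547 (acidic P0) at 10.3, NCU04614 (L19) at 21.8 and NCU04068 (L6) at 22.0 FPKM.

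All of these low genes but loc-1 share a feature that the rule did not use. The product names give the same protein number to more than one gene in 11 cases, which together cover 24 of the 73 genes, and in each case 1 gene stood far above the others. The nearest pair was S13, where NCU03038 had 903 FPKM and NCU09539 had 102, an 8.83-fold difference. The farthest was L20, where NCU08389 exceeded NCU04225 1980-fold. The other lower genes lay 13.5- to 66.1-fold below the highest gene of their number. These 13 genes are called lower copies here: NCU06768 (L16), NCU04336 and NCU04614 (L19), NCU02757 (L2), NCU04225 (L20), NCU06749 and NCU08299 (L3), NCU01474 (L4), NCU04068 (L6), NCU07547 (P0), NCU09539 (S13), NCU02951 (S8) and NCU03827 (S9). Setting them and loc-1 aside leaves 59 highest or sole copies, 21 of the 40S and 38 of the 60S.

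The product names do not say whether a lower copy belongs to the cytosolic ribosome, to that of the mitochondrion or to neither, and their proteins were not compared here. By level, the 13 lower copies had a median of 27.5 FPKM on the same mean of the 4 groups. The 16 genes named as mitochondrial ribosomal proteins had a median of 30.5 FPKM, and the 59 highest or sole copies one of 755 FPKM. One sole copy, NCU08893 (L1), lay below both of the lower medians at 24.5 FPKM. In the highest or sole copies the 40S and 60S genes were close in level: the ratio of their mean FPKM was 0.88 to 1.09 in the deletion libraries, 1.01 to 1.05 in A828V without carbon, 0.891 to 1.03 in wild type on xylan and 0.977 on sucrose.

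**Figure D2:**
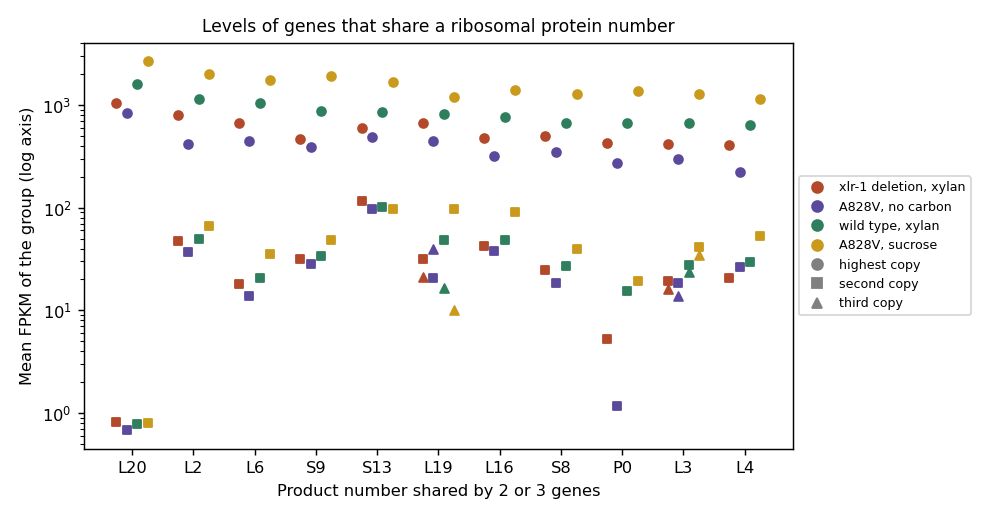
Mean FPKM per group (log axis) of the genes that share a ribosomal protein number, for the 11 numbers held by 2 or 3 genes. In every number and group the highest copy (circles) stands well above the other copies (squares and triangles); P0 and L20 have the lowest of these.

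The first comparison asked whether the level of these genes on xylan depended on xlr-1. None of the 73 genes passed the test in the deletion against wild type (0 lower and 0 higher at an adjusted p under 0.05, edgeR's quasi-likelihood test with Benjamini-Hochberg adjustment over 8557 genes). Over all genes tested, 0.573% were lower and 0.0234% higher. At an unadjusted p under 0.05, 22 of the 73 were lower, against 7.35% of all genes tested. DESeq2 and limma, on counts and on log2 FPKM, also called 0 of them. The log2 fold changes of the 73 lay close together below 0, with a median of -0.62 and an interquartile range of 0.23. Over all genes tested the median was 0.05 and the interquartile range 0.68. Of the 73, 69 had a negative value, against 45.9% of all genes. In 11 of them every deletion library lay below every wild-type library, against 5.01% of all genes. The 73 genes were measured in the same libraries, so these counts are not of independent observations.

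The lowest adjusted p in this comparison was that of NCU01949 (un-16, also crp-17; S9 of the small subunit; chromosome I, 1896783 to 1898329), one of the un genes known from temperature-sensitive mutants of Neurospora. It had 362, 424, 454 and 619 CPM in the deletion libraries, against 1023, 606 and 1042 CPM in wild type. Deletion library 4 overlapped wild-type library 2. By edgeR its log2 fold change of -0.94 had an SE of 0.29 and an adjusted p of 0.194. The only more negative value was that of NCU07547 (P0, lower copy) at -1.41 with an SE of 0.72. After un-16 came NCU06226 (L25) at -0.89, NCU03988 (L18) at -0.86, NCU06661 (L22) at -0.85, NCU03302 (L36) at -0.83, NCU02905 (L23) at -0.82, NCU07826 (S19) at -0.80, NCU03102 (S11) at -0.79 and NCU06892 (S20) at -0.78. L25 had 211, 523, 345 and 462 CPM in the deletion libraries, against 632, 557 and 960 CPM in wild type, and the groups did not overlap. The 10 values at the other end ran from -0.30 to 0.21 and included 9 lower copies. The 59 highest or sole copies had a median of -0.65 and the 13 lower copies one of -0.22.

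The shift in the deletion was not equal between its libraries. Set against the wild-type mean on log2 CPM, the median of the 73 genes was -1.16, -0.73, -0.58 and -0.24 in deletion libraries 1 to 4, and 0.04, -0.35 and 0.31 in wild-type libraries 1 to 3. Deletion library 4 thus stood above wild-type library 2. Without deletion library 1 the median log2 fold change of the comparison was -0.48, and without wild-type library 2 it was -0.84. Between libraries of the same number, 69, 56 and 66 of the 73 genes had a lower CPM in the deletion for numbers 1, 2 and 3, against 46.3, 49.5 and 50.3% of all genes tested.

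The second comparison set A828V without carbon against A828V on sucrose, the medium in which all cultures had begun. Of the 73 genes 65 fell, 1 rose and 7 were not called (edgeR, Benjamini-Hochberg adjusted p under 0.05), against 10.4% of all genes tested that fell and 8.39% that rose. The median log2 fold change was -2.41, a 5.31-fold lower level, against 0.11 over all genes. In 71 of the 73 each of the 3 libraries without carbon lay below the sucrose library, against 41.3% of all genes. The sucrose group is 1 library, which the test assumes to vary like the other groups. By subunit, 21 of the 24 40S genes and 44 of the 49 60S genes fell, with medians of -2.42 and -2.41.

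The deepest fall among the highest copies was that of NCU03757 (L4-A; in other eukaryotes L4 lines the exit tunnel; chromosome V, 2317805 to 2319837). It had 147, 290 and 227 CPM without carbon, against 2156 CPM on sucrose, and a log2 fold change of -3.28 (SE 0.52, adjusted p = 0.00420, edgeR). NCU06432 (S12) had 184, 324 and 239 CPM without carbon, against 2308 CPM on sucrose, a 9.27-fold difference. NCU06661 (L22) had 122, 205 and 126 CPM without carbon, against 1306 CPM on sucrose, an 8.66-fold difference. In these 3 genes even the highest library without carbon lay far below the sucrose library. The remaining genes of the 10 lowest included both genes named P0 and P2, described below with the stalk names. The others were NCU02905 (L23) at -2.89, NCU07826 (S19) at -2.89, NCU02744 (L9) at -2.88 and NCU00413 (L2) at -2.88. The named un genes moved alike: un-16 (S9) changed by -2.84 and NCU05554 (un-25, L13; chromosome VI, 1535186 to 1538485) by -2.84, with 306, 484 and 399 CPM without carbon, against 2842 CPM on sucrose.

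The third comparison put A828V without carbon beside wild type grown on xylan, so that the allele, the promoter that drives it and the carbon source differ together and cannot be told apart. Here 61 of the 73 genes fell, 1 rose and 11 were not called (edgeR, Benjamini-Hochberg adjusted p under 0.05), against 11.5% of all genes tested that fell and 9.29% that rose. The median log2 fold change was -1.44, a 2.72-fold lower level, against -0.01 over all genes. In 70 of the 73 every A828V library lay below every wild-type library, against 25.9% of all genes. By subunit, 20 of the 24 40S genes fell, with a median of -1.35, and 41 of the 49 60S genes, with a median of -1.52. The count of genes that fell depended on single libraries more than the size did. Without A828V library 1 it was 13, with a median of -1.29, and without A828V library 3 it was 17, with a median of -1.43, while over all genes the falls came to 276 and 274, against 983 with every library. In every setting that left out 1 library, 13 of the 61 kept their fall.

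Among the highest copies the values furthest below 0 were those of NCU05599 (S28; chromosome VI, 1376428 to 1377631) and NCU03757 (L4-A), both at -2.06, and of NCU07826 (S19, which yeast and human cells need to build the small subunit) at -2.01. S28 had 157, 281 and 199 CPM in A828V without carbon, against 711, 636 and 1302 CPM in wild type on xylan (SE 0.39, adjusted p = 0.00810, edgeR). S19 had 97.9, 156 and 141 CPM in A828V without carbon, against 630, 333 and 631 CPM in wild type, and the lowest adjusted p of the 73 genes, 0.00396 (edgeR, Benjamini-Hochberg). The groups of both genes stood clear of each other. NCU03302 (L36) changed by -1.99, NCU02744 (L9) by -1.89, NCU06892 (S20) by -1.86 and NCU00413 (L2) by -1.85, and all of these fell. NCU06749 (L3, lower copy) had a value of -1.90 but was not called (adjusted p = 0.127, edgeR). The highest copy closest to 0 among those that fell was NCU08964 (L10, which joins the large subunit late in its assembly) at -0.92. S28, S19, L36, S20 and L2 were among the 13 genes that kept their fall without any 1 library. L4-A lost its call without A828V library 1 (adjusted p = 0.053, edgeR) and L9 without A828V library 1 or 3 (0.0536 and 0.0514). L10 lost its call without any of the 3 A828V libraries, wild-type library 1 or 3, or deletion library 3 (edgeR adjusted p of 0.0654 to 0.166), and NCU06749 was called without deletion library 4 (0.0184).

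The 2 comparisons share the A828V libraries without carbon, so their calls are not independent. Side by side, 60 genes fell in both, 5 only against sucrose, 1 only against xylan and 7 in neither. Whether the change differed between the comparisons was not tested.

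**Figure D3:**
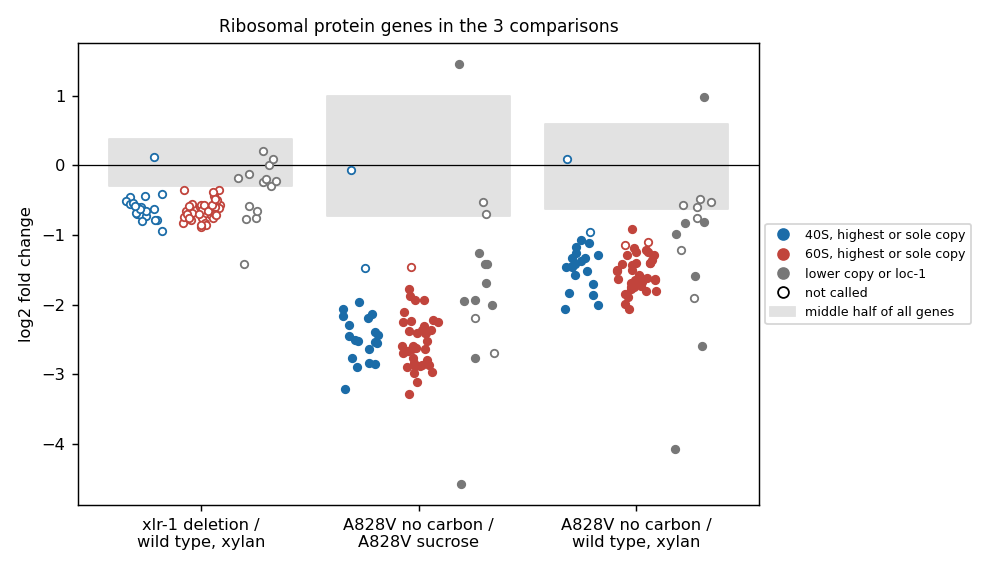
log2 fold change of the 73 genes in each comparison, from edgeR. Each point is a gene, filled where it passed an adjusted p of 0.05, and the grey band spans the interquartile range of all 8557 genes tested; the 40S and 60S highest copies sit below the band in all comparisons except for the 40S gene S30 near 0, and the lower copies and loc-1 (grey) scatter more widely.

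S30 was the highest copy with the values nearest to 0. NCU06048 (S30, a small protein of the 40S subunit; chromosome VII, 1982787 to 1983682) had 125, 152, 89.4 and 95.9 CPM in the deletion libraries, against 107, 86.8 and 125 CPM in wild type on xylan. It had 112, 124 and 103 CPM in A828V without carbon, against 119 CPM on sucrose. Its level was thus much the same in all 4 groups, and its log2 fold changes were 0.12, -0.07 and 0.09 in the order of the comparisons above, with SEs of 0.23, 0.35 and 0.25, though the value against sucrose was 0.44 on library totals without TMM factors. It also had the lowest FPKM of the 21 40S highest or sole copies, at 264. The gene next to it, NCU06047 (S2), begins 641 bases beyond its end and did fall in both A828V comparisons, with log2 fold changes of -2.13 against sucrose and -1.11 against xylan. S2 was looked at because it is the neighbour, and its fall against xylan was not among the 13 that held without any 1 library.

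L39 and S27 were the other highest copies not called in either A828V comparison. NCU08990 (L39) had 874, 1066 and 890 CPM in A828V without carbon, against 2596 CPM on sucrose. It had 650, 2525, 1247 and 1385 CPM in the deletion, against 1285, 1797 and 2984 CPM in wild type on xylan, and its deletion values had the widest span by ratio among the 59 highest or sole copies. Its values were -1.46 (adjusted p = 0.122) and -1.10 (adjusted p = 0.118) against sucrose and xylan, by edgeR. NCU00618 (S27) had values of -1.48 (adjusted p = 0.0610) and -0.96 (adjusted p = 0.0940), by edgeR. In both genes the libraries without carbon lay below the sucrose library and every wild-type library. Without wild-type library 3, deletion library 1 or deletion library 4 in the shared fit, S27 was called against sucrose (edgeR adjusted p of 0.0362, 0.0357 and 0.0401). The other 4 of the 5 highest genes by FPKM fell in both comparisons, though none of these 4 was among the 13 that kept their fall against xylan without any 1 library.

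Counted apart, the lower copies had a smaller share of genes that fell than the highest copies. Against sucrose 9 of the 13 fell and 1 rose, with a median of -1.69, while 56 of the 59 highest or sole copies fell, with a median of -2.52. Against wild type on xylan 5 of the 13 fell and 1 rose, with a median of -0.81, while 55 of the 59 fell, with a median of -1.50. These counts depended on single A828V libraries, as did the share of all genes tested that fell. Against sucrose that share was 4.79% without library 1 and 4.9% without library 3. Against xylan it was 3.23, 5.2 and 3.21% without libraries 1, 2 and 3. It was 6.72% there without wild-type library 1 and 16.2% without deletion library 4. Against sucrose 3 of the lower copies fell without library 1 and 5 without library 3. NCU02951, NCU04068 and NCU04336 fell there in every setting that left out 1 library, though the sucrose library could not be left out. Against xylan 1 fell without library 1, 2 without library 2, 1 without library 3, 3 without wild-type library 1 and 8 without deletion library 4, and NCU04336 alone fell in every such setting. There the highest or sole copies that fell came to 12 without A828V library 1 and 16 without library 3. The difference between these classes was not tested. The gene that rose was NCU04614 (named L19; chromosome V, 1495317 to 1499364), at 4048 bases the longest of the 73. It had 146, 134 and 136 CPM in A828V without carbon, against 50.6 CPM on sucrose and 73.1, 85.7 and 52.3 CPM in wild type on xylan. Every library without carbon lay above all of these. The log2 fold changes were 1.46 (adjusted p = 0.0367) and 0.98 (adjusted p = 0.0310), by edgeR. Both calls were lost without any 1 of the A828V libraries without carbon (adjusted p of 0.0704 to 0.0885 and of 0.0801 to 0.102), and the call against xylan also without wild-type library 1 (0.07) or 3 (0.0975). The other lower copy of L19, NCU04336, fell by 2.76 and by 1.59 log2 units in the same comparisons, close to the highest copies. NCU09539 (S13) had 59.7, 73.7 and 70.1 CPM in A828V without carbon, against 110 CPM on sucrose and 97.1, 86.6 and 99.4 CPM in wild type on xylan, and it was not called by the fit with all libraries, but was in both comparisons when deletion library 4 was left out (edgeR adjusted p of 0.0361 and 0.0418). NCU04225 (L20) stood at 1.94 to 2.06 CPM in A828V without carbon, against 2.90 CPM on sucrose, and 2498 of its 2655 bases overlap the gene NCU04226, so its reads cannot be assigned with certainty. NCU06749 (L3), of which 1492 bases overlap NCU06748, had at most 9.11 CPM by counts but 12.1 to 41.3 FPKM, so that counts and FPKM place it differently. Against xylan, NCU04068 (L6) fell by 0.99 log2 units, a call that was lost without A828V library 1 (edgeR adjusted p = 0.0872) or 3 (0.0775). NCU02951 (S8) fell there by 0.81 and NCU02757 (L2) by 0.82 log2 units. Both calls were lost without any 1 of the A828V libraries without carbon or wild-type library 1 (edgeR adjusted p of 0.0826 to 0.116 and of 0.0807 to 0.138). The call of L2 was also lost without deletion library 3 (0.0507, edgeR). NCU06768 (L16) at -0.76, NCU01474 (L4) at -0.60 and NCU03827 (S9) at -0.57 were not called.

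**Figure D4:**
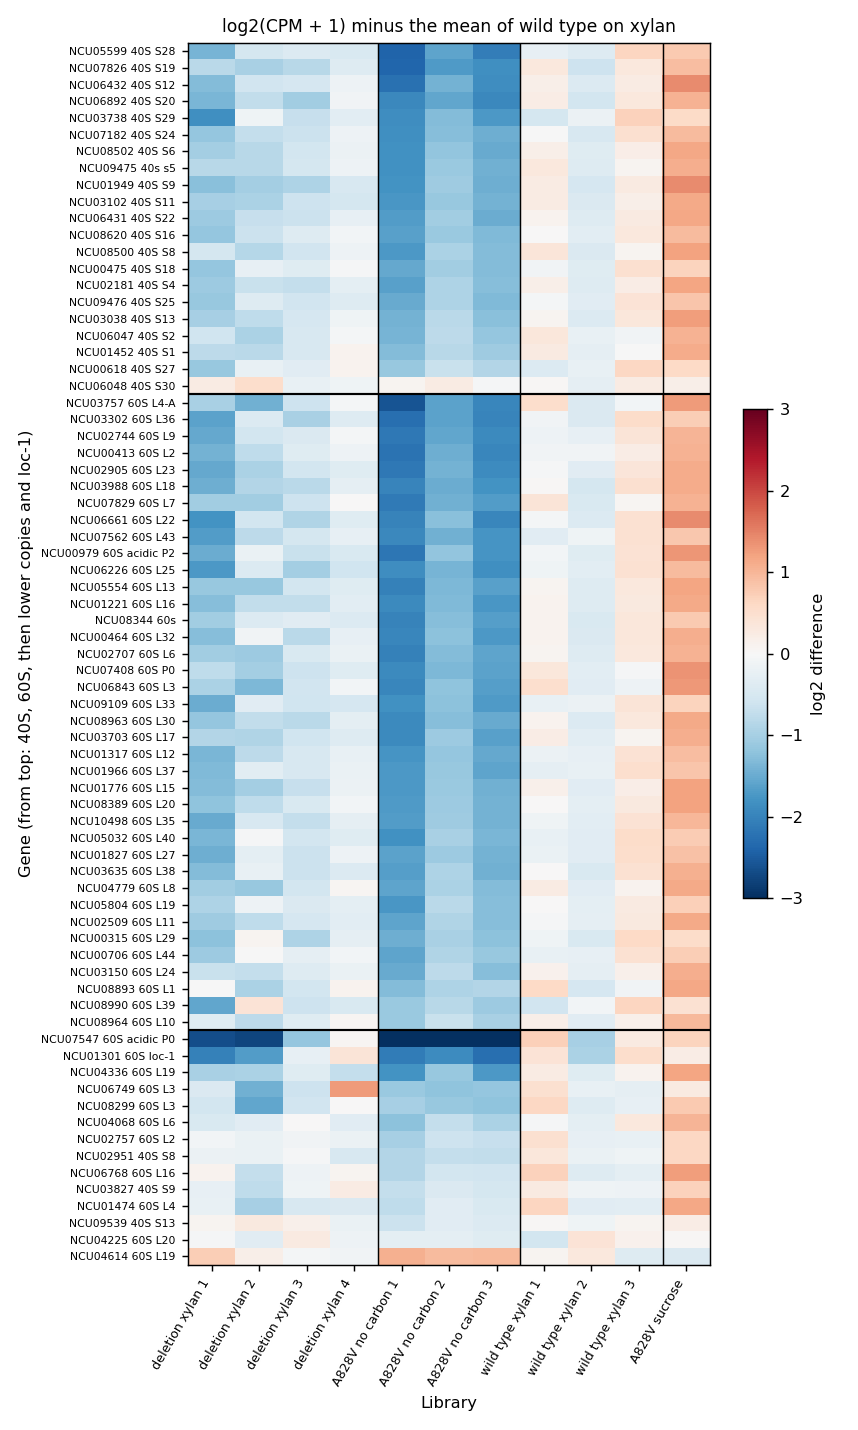
log2(CPM + 1) of each of the 73 genes in each library, minus the mean of wild type on xylan; rows are genes in 3 blocks (40S, 60S, lower copies with loc-1) and the colour scale ends at -3 and 3. A828V without carbon is blue in nearly every row and the sucrose library is red. S30, the S13 gene NCU09539 and the L19 gene NCU04614 stand out, while P0 (NCU07547) runs beyond the scale.

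Genes with stalk protein names included po, which moved with most of the 73, and NCU07547, whose values were extreme. The product name alone places NCU07547 with the stalk. NCU07408 (po, also crp-69; P0, which anchors the stalk on the large subunit; chromosome I, 6039626 to 6042015) had 546, 456, 598 and 722 CPM in the deletion libraries, against 1177, 745 and 908 CPM in wild type. It had 244, 366 and 302 CPM in A828V without carbon, against 2360 CPM on sucrose. The deletion and wild-type libraries did not overlap, but the value of -0.70 was not called (adjusted p = 0.267, edgeR). It fell by 2.96 log2 units against sucrose, with the lowest adjusted p of the 73 genes there (0.00221, edgeR), and by 1.63 against xylan. NCU00979 (P2) had 279, 559 and 367 CPM in A828V without carbon, against 3171 CPM on sucrose, and fell by 2.98 log2 units.

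NCU07547 carries the product name acidic P0 but behaved unlike po. It had 2.50, 2.27, 8.81 and 21.9 CPM in the deletion libraries, against 35.0, 10.1 and 25.6 CPM in wild type on xylan. It had 1.51, 1.48 and 1.19 CPM in A828V without carbon, against 33.7 CPM on sucrose. Within the deletion, libraries 1 and 2 were low and library 4 lay within the range of wild type. Its log2 fold changes were -4.58 (SE 1.02, adjusted p = 0.0139) against sucrose and -4.07 (SE 0.88, adjusted p = 0.0124) against xylan, by edgeR, the lowest log2 fold changes of the 73 genes in both. The first call was lost without A828V library 1 (0.0508) or 3 (0.055), and the second without any of the 3 (edgeR adjusted p of 0.0504 to 0.061). NCU01301 (loc-1, known in yeast for large subunit assembly; chromosome V, 3573067 to 3574281) had the same order of libraries in the deletion but for the lowest pair, with 2.66, 3.63, 11.5 and 18.6 CPM, against 18.9, 6.75 and 20.5 CPM in wild type. It had 2.46, 3.01 and 2.13 CPM in A828V without carbon, against 16.4 CPM on sucrose. It fell by 2.60 log2 units against xylan (adjusted p = 0.0314, edgeR), and its value of -2.69 against sucrose was not called (adjusted p = 0.0575). The call against xylan was lost without any A828V library or wild-type library 1 or 3 (edgeR adjusted p of 0.0737 to 0.113), and a call against sucrose was gained without deletion library 1, 2 or 4 (0.0274 to 0.0439). The 47 genes named for ribosome assembly had a median of -1.99 against xylan, with 16 that fell and 1 that rose, against 11.5 and 9.29% of all genes tested, and a median level of 7.56 FPKM. Without A828V library 1 or 3, 0 of the 47 fell there, against 3.23 and 3.21% of all genes tested.

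Levels in wild type without carbon come only from the authors' deposited tables, as group means with no spread. By the authors' deposited table, 49 of the 73 genes were higher in wild type on xylan than in wild type without carbon and 0 were lower (adjusted p under 0.05), against 5.91% of all genes in that table that were higher and 1.93% that were lower. The median log2 fold change of the 73 in the authors' deposited table was 2.30, a 4.93-fold higher level on xylan. It was 0.04 over the 8815 genes of that status with a finite value. Of the highest or sole copies 48 of 59 were called there, and of the lower copies 1 of 13. That lower copy was NCU07547, with the authors' means of 17.8 FPKM on xylan, against 0.662 FPKM without carbon. Next among the genes called in the authors' deposited table came S29 (NCU03738), with 1946 FPKM on xylan, against 204 FPKM without carbon, a log2 fold change of 3.25. S30 had 259 FPKM on xylan, against 254 FPKM without carbon, in the authors' deposited table, so its level was flat there too. The L19 gene NCU04614 had a negative value, -1.04, with 18.7 FPKM on xylan, against 38.5 FPKM without carbon, and was not called in the authors' deposited table.

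The other deposited table set the 2 strains without carbon against each other. Of the 73 genes 1 was higher in A828V than in wild type, both without carbon, in the authors' deposited table, and 0 were lower. Of the 8899 genes whose test status was OK in that table, 2.94% were higher and 1.57% were lower. The 1 higher gene of the 73 was S29, with 582 FPKM in A828V, against 235 FPKM in wild type. Its adjusted p was 0.0379 in the authors' deposited table. The median log2 fold change of the 73 in the authors' deposited table was 0.73, a 1.66-fold higher level in A828V. It was -0.05 over the 8858 genes of that status with a finite value. Of the 73 values 62 were positive, against 3983 of those 8858. The 13 lower copies had a median of -0.17 in the authors' deposited table. Summed over the 73 genes, the authors' means came to 23116 FPKM in A828V without carbon, against 13469 FPKM in wild type without carbon in the same table. Both tables hold the same wild type without carbon, whose means for the 73 genes differed in scale by a median ratio of 0.869 between the authors' deposited tables, so values are set side by side only within a table.

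**Figure D5:**
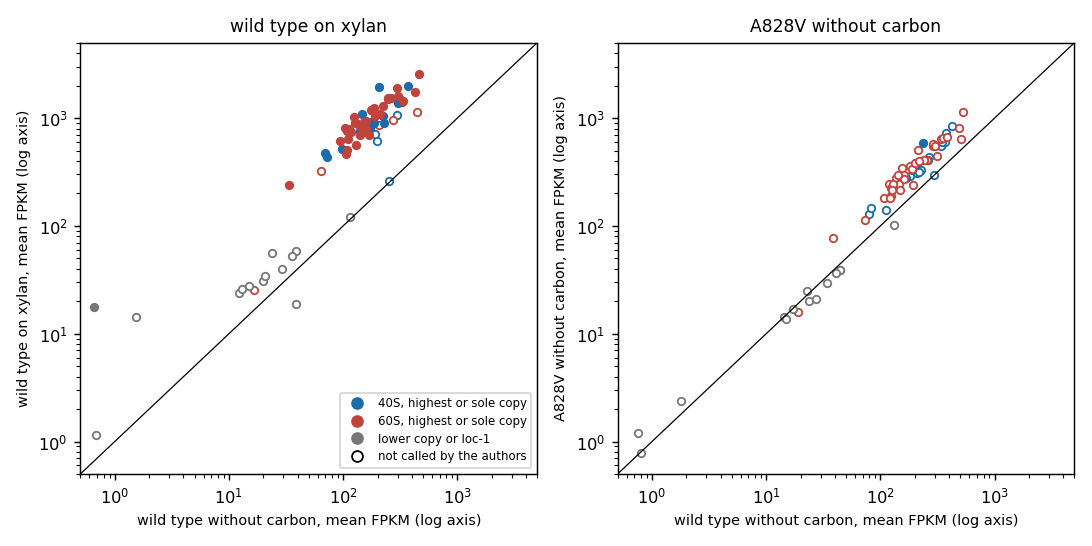
The authors' mean FPKM of each of the 73 genes in wild type on xylan (left) and in A828V without carbon (right), each against wild type without carbon on log axes, from the deposited comparison tables. Points above the diagonal are higher than in wild type without carbon; on the left 49 are filled as called by the authors, on the right 1.

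The 73 genes were spread over all 7 chromosomes, with 22 on chromosome I, 18 on V, 12 on III, 9 on II, 6 on VI, 4 on VII and 2 on IV. In 5 places members stand directly next to each other: L6 and L35 on chromosome I, S30 and S2 on VII, S22 and S12 on III, L30 and L10 on V, and S5 and S25 on II. S22 (NCU06431) and S12 (NCU06432) are 104 bases apart and both fell, by 2.54 and by 3.21 log2 units against sucrose. L30 and L10 overlap by 170 bases, so reads in that stretch cannot be told apart. In all, 34 of the 73 overlap another annotated gene, and the use of strand in counting stands as not given in the sources used here. Across the 59 highest or sole copies, gene length was weakly related to the fold change, with Spearman's rho of -0.21, -0.30 and -0.12 in the 3 comparisons, given as a description over genes of the same libraries.

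Other genes of protein synthesis, listed by product name, were also lower in part in A828V without carbon. Against sucrose, A828V without carbon had lower levels of 26 of the 28 ribosomal protein genes outside the rule and of 12 of the 16 named as mitochondrial, with medians of -2.22 and -1.84, where 10.4% of all genes tested fell. Lower as well were 14 of 47 ribosome assembly genes, 14 of 34 aminoacyl-tRNA synthetase genes, 10 of 37 translation factor genes and 3 of 9 genes of RNA polymerases I and III. Against wild type on xylan the counts were 23 of 28, 9 of 16, 16 of 47, 9 of 34, 7 of 37 and 4 of 9 in the same order, where 11.5% of all genes tested fell. Leaving out 1 A828V library without carbon lowered most of these counts, and the share of all genes tested that fell dropped as well. Without A828V libraries 1, 2 and 3 that share was 4.79, 6.34 and 4.9% against sucrose. Against xylan it was 3.23, 5.2 and 3.21%. Against sucrose the assembly genes then had 0 or 1 fall, the synthetase genes 4 or 5, the translation factor genes 2 to 6 and the polymerase genes 0. Against xylan these 4 lists then had 0 or 1, 1 or 2, 1 to 4 and 0 or 1, the genes outside the rule 4 to 15 and the mitochondrial ones 2 or 3. Other libraries in the shared fit moved the counts both ways, and the share over all genes tested moved too. Against sucrose and xylan that share was 15.1 and 16.2% without deletion library 4 and 9.05 and 9.28% without deletion library 3. It was 12.3 and 13.8% without deletion library 2, 11.4 and 9.77% without wild-type library 3, and 11.8 and 6.72% without wild-type library 1. The assembly genes had 28 falls against sucrose and 34 against xylan without deletion library 4, 5 and 5 without deletion library 3 and 9 and 5 without wild-type library 3, and 1 against xylan without wild-type library 1. The synthetase genes had 16 falls against xylan without deletion library 2 or 4 and 5 without deletion library 3 or wild-type library 1. The translation factor genes had 13 against xylan without deletion library 2 or 4 and 2 without wild-type library 1, and 6 against sucrose without deletion library 3. The polymerase genes had 5 against sucrose without deletion library 4, 1 without deletion library 3 and 1 without wild-type library 3, and against xylan 0 without wild-type library 1 and 2 without wild-type library 3. Without wild-type library 1 the genes outside the rule had 15 falls against xylan and the mitochondrial ones 3. Of these lists, 1 ribosome assembly gene was higher in each of the 2 comparisons and 1 translation factor gene against xylan. The 28 genes outside the rule include 8 with crp names, for cytosolic ribosomal proteins, and all 8 fell in both A828V comparisons, though against xylan 2 of them fell without A828V library 1 and 2 without library 3. One of the 8, NCU04553, is a fusion of ubiquitin with crp-6 by its product. A further 12 of the 28 carry 37S, 50S or similar names, which do not place them in the cytosolic ribosome, so the 28 are a mixed list. The median level of these 12 was 29.6 FPKM, against 686 FPKM for the 8 crp genes. Of the 12, 11 fell against sucrose and 10 against xylan, with medians of -1.91 and -1.14. Against xylan the falls of all 28 depended on single libraries, as given above. In the deletion 0 genes of these lists were called by edgeR, and at an unadjusted p under 0.05 the genes with lower values numbered 11, 7, 3, 6, 7 and 1 in the same order, with 2 synthetase genes and 1 translation factor gene higher. Over all genes tested 7.35% were lower at that threshold, so that 3 of 47 assembly genes is not above it. The medians of the lists lay between -0.63 and -0.44.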

How the data were processed

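RNA was extracted from whole mycelium with phenol and chloroform, treated with DNase and sequenced from Illumina libraries, per the labels' protocols. TopHat2 2.04, HTSeq 0.6, Cufflinks 2.02 and Cuffdiff 2.02 are named in the submitters' processing notes, while settings and build stand as not given in the sources used here. Raw read counts per gene were deposited by the authors, a table for each library. Their 5 entries that name no gene made up 6.34 to 29.57% of a library's total, highest in deletion library 2, and were left out. The deposited FPKM tables hold the authors' fragment counts scaled by length and library size, per the file headers. The comparison tables deposited by the authors hold group means of FPKM, log2 fold changes and adjusted p-values for 9600 genes, per the file headers, and 12 columns of single libraries in them were not used.

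The test on counts was that of edgeR 4.0.16 (R 4.3.3), using TMM factors, a count minimum of 10 in filterByExpr and the quasi-likelihood F-test, 2-sided, on all 11 libraries in 1 fit with 1 coefficient per group and 7 residual degrees of freedom. P-values were adjusted by Benjamini-Hochberg over 8557 genes, all 73 members among them, with calls at an adjusted p under 0.05. They rest on the spread between these samples alone, and that spread may be technical. DESeq2 1.42.0, limma 3.58.1 on log2(FPKM + 1) and log2(FPKM + 0.1), other scalings, filters, thresholds and fits leaving out a library stood as alternatives. The code was tested on simulated data. Each pair of libraries within a group differed by more than sampling noise.

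Same-numbered deletion and wild-type libraries deviated together over genes (r = 0.64, 0.264 and 0.252), and the numbers were taken as a possible pairing. Only number 1 stood apart from differently numbered libraries. Deletion library 2 and wild-type library 3 had r = 0.247, and deletion library 3 and wild-type library 2 had 0.159. Same-numbered libraries of A828V without carbon and wild type did not deviate together (r = -0.103, -0.234 and -0.174). Any pairing comes from the data, as the labels give only the numbers. A fit with the replicate number as a block is therefore among the alternatives.

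The members, the lists beside them and the rules were chosen with earlier results of these data known, so no test over a list was made. Named were, per comparison, the 10 lowest and 10 highest log2 fold changes, the 5 highest and 5 lowest FPKM levels, genes with a symbol in RefSeq, and acidic proteins. None of the 73 product names a ubiquitin fusion. Pairs by protein likeness were not analysed here. All 73 coordinates, counted from 1, equal those of the RefSeq annotation of assembly NC12.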

Additional observations from a re-analysis of the deposited data

Results flagged for a closer look

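Among 37 sets of 4 deletion libraries looked at, 1 held a library far from the others. NCU05599 (S28) had 319 CPM in deletion library 1, against 583 to 633 CPM in deletion libraries 2 to 4. The gap to the nearest library was 0.84 of the range, above Dixon's critical value for 4 libraries. Chance flags about 1 in 20 such sets. Deletion library 1 also had the lowest median of the 73 genes in the deletion group. S28 was not called in the deletion with or without that library.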

How the results depend on the processing

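The sign of the median log2 fold change of the 73 genes was kept in all 3 comparisons under every alternative run. Its values ran from -0.84 to -0.46 for the deletion against wild type, from -2.69 to -1.90 for A828V without carbon against sucrose and from -1.71 to -1.12 for A828V without carbon against xylan. Leaving out 1 library at a time gave -0.84 to -0.48, -2.6 to -2.27 and -1.71 to -1.29 in the same order. It gave 0 calls in the deletion, 53 to 69 falls against sucrose and 13 to 65 against xylan, with 0 to 1 rise in both. In these settings 4.79 to 15.1% of all genes tested fell against sucrose and 3.21 to 16.2% against xylan. The sucrose library, the only one of its group, could not be left out against sucrose. The ranges against sucrose therefore do not cover the spread of that group. Against sucrose the median was -1.90 on library totals without TMM, where the median of all genes was 0.62, and -1.93, -1.92 and -1.92 by limma on log2(FPKM + 0.1), log2(FPKM + 1) and log2(FPKM + 1) without a filter. On library totals 58 genes fell against sucrose and 51 against xylan, where the median of all genes was 0.30. At an adjusted p under 0.01 there were 18 falls and 0 rises against xylan, and 0 rises against sucrose. At that threshold the authors' deposited tables had 27 genes higher in wild type on xylan and 0 higher in A828V, both against wild type without carbon.

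With the replicate block the deletion still had 0 calls, at a median of -0.82, and A828V without carbon had 63 falls against sucrose and 61 against xylan. The compared groups alone with the block, added after seeing the data, gave 0 calls in the deletion at -0.79 and 47 falls against xylan. Without deletion and wild-type libraries 1, also added later, the deletion median was -0.46. The block moved no count of calls by over 1.5 times.

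Some uncalled values near 0 changed sign. In the deletion, NCU06749 gave -1.25 and -1.23 with the block and -0.55, -0.52 and -0.52 by limma. Without both libraries numbered 1, NCU02757 gave 0.08 and NCU06768 0.12, and NCU04225 gave 0.03 by limma without a filter. Leaving out 1 library at a time, the deletion values ran from -1.23 to 0.39 for NCU06749, from -0.37 to 0.10 for NCU02757, from -0.48 to 0.21 for NCU06768 and from -0.42 to 0.09 for NCU04225. They ran from -0.07 to 0.22 for NCU06048, from -0.03 to 0.13 for NCU09539 and from -0.02 to 0.31 for NCU04614. Against sucrose NCU06048 gave 0.44 on library totals and 0.38, 0.38 and 0.38 by limma, and against xylan -0.12 to 0.16 without a library. These causes were not tested.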
